A study of Mus musculus with 8 samples.

Results

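Adipocyte genes are the 10 genes Adipoq, Lep, Retn, Cfd, Car3, Cidec, Cidea, Plin1, Fabp4 and Pparg, read here as a sign of fat tissue attached to the gut. They were chosen by name as genes typical of fat cells, with earlier results of these data known. All probes whose symbol in the array's platform annotation was one of these names were taken. This gave 11 probes for 9 genes, out of 16593 genes on the array, since no probe carried the symbol Cfd, which is not analysed here. Total RNA from mouse intestine and colon, with and without overexpression of Nanog, a transcription factor of pluripotent stem cells, was hybridised as biotin-labelled cRNA to 8 Illumina bead arrays. The 4 groups were either tissue without overexpression (intestine or colon without Nanog) and either tissue with it, each with 2 arrays that the design calls biological replicates. Strain, age, the agent or allele that gave the overexpression, its duration and the promoter driving it were not stated in the labels, nor was how the gut was dissected or whether colon and intestine came from the same animals.

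Fat cells store triglyceride in a single large droplet coated by perilipin 1 (Plin1) and enlarged by the droplet-fusing protein Cidec, and they secrete the hormones adiponectin (Adipoq), leptin (Lep) and, in mice, resistin (Retn). The nuclear receptor PPAR gamma (Pparg) turns on much of this program, and the fatty acid carrier Fabp4 and the carbonic anhydrase Car3 are among the most abundant proteins of the mouse fat cell. The gut wall holds few fat cells, but the mesentery along which its vessels run is rich in them. Several of these genes are not restricted to fat: Pparg is also made by the colon epithelium, Car3 by skeletal muscle and liver, and Cidec by the fatty liver.

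The promoters of Adipoq and Lep are shown because these hormones are the members least expected outside fat and because both were highest in colon without Nanog. Each runs 5′ to 3′ on the gene's own strand from 250 bases before to 50 bases after the annotated start of transcription (RefSeq, GRCm38.p6), and 7 of the 10 genes matched that table, with 10 entries. Capitals mark matches, on either strand, to the CCAAT box (spelled CCAAT), the TATA box (spelled TATAA) and TTGCGCAA, a palindrome of the kind bound by C/EBP factors. The Adipoq promoter lies at chr16:23146286-23146585 on the plus strand and the Lep promoter at chr6:29059971-29060270 on the plus strand.
Adipoq: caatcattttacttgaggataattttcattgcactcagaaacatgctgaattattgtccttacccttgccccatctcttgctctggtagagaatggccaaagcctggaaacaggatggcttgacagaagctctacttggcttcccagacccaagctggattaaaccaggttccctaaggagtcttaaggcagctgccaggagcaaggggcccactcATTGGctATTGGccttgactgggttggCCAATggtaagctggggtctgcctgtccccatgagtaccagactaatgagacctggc
Lep: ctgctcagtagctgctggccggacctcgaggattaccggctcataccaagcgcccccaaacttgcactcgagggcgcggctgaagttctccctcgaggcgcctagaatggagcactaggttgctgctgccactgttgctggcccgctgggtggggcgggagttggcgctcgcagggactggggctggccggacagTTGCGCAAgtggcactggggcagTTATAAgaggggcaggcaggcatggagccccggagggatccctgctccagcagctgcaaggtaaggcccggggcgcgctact
The Adipoq window held CCAAT 3 times, starting 34 and 27 bases before the start site on the opposite strand and 7 bases before it on the gene's strand. The Lep window held the palindrome TTGCGCAA 55 bases before the start site, and TATAA on both strands in overlapping matches that began 32 and 31 bases before it. Of all 32851 promoter windows of that length, 37.41% held the CCAAT box, 24.87% the TATA box and 0.1826% the palindrome. The half-site of nuclear receptors, AGGTCA (16.26% of windows), was in neither. Of the 3 windows of Pparg itself, 2 held AGGTCA. A match is a match of letters in this window and not a measured site.

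The arrays had median intensities from 96.2 to 107.7, except for replicate 2 of intestine with Nanog at 84.6, and 10652 to 11993 of 25697 probes stood above background, meaning a detection p-value under 0.01. None of the arrays had the Nanog probe above background (its detection p-value was at least 0.172 and at most 0.817), so it does not separate the groups, which rest on the labels alone. Whether this probe lies in the part of Nanog that was overexpressed was not stated in the labels. Genes of the gut epithelium were above background on all 8 arrays (9 of 9 listed genes on the array). Genes of pancreatic acinar cells were far higher on replicate 2 of both groups with Nanog than on the other arrays, with values given further on.

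Of the hormones, adiponectin gave the clearest signal. The Adipoq intensities in colon were 1046.3 and 1367.6 without Nanog against 177.3 and 160.4 with it, and those in intestine were 578.0 and 219.4 without against 246.4 and 78.7 with it. The colon arrays without Nanog were the highest of all 8 and did not overlap those with Nanog, whereas the intestine groups overlapped. Only the array of 78.7, replicate 2 of intestine with Nanog, was below background (detection p-value 0.382). Means were 1207 ± 227 (SD, n = 2) against 168.9 ± 12.0 in colon, and 398.7 ± 253.6 against 162.6 ± 118.6 in intestine.

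Leptin, the hormone that reports fat stores to the brain, was dimmer. In colon its probe gave 174.5 and 149.0 without Nanog and 104.0 and 101.1 with it, and in intestine 148.0 and 96.4 without and 141.5 and 76.5 with it. Both colon arrays without Nanog and replicate 1 of each intestine group were above background, and the other 4 arrays were not. Lep therefore entered the tests only through colon without Nanog, the group in which it was high. Resistin stayed below background throughout (intensities of 78.8 to 96.9, lowest detection p-value 0.279).

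Car3, the carbonic anhydrase, was likewise highest in colon without Nanog. Colon arrays read 792.0 and 1546.3 without Nanog and 146.1 and 219.7 with it, and intestine arrays 326.1 and 181.7 without and 242.9 and 86.0 with it. Colon without Nanog did not overlap colon with Nanog, and the intestine groups overlapped, with replicate 2 of intestine with Nanog again the lowest array and below background (detection p-value 0.0451). Means were 1169 ± 533 (SD, n = 2) against 182.9 ± 52.1 in colon and 253.9 ± 102.1 against 164.5 ± 111.0 in intestine.

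Among the proteins of the lipid droplet, Cidec was above background on all 8 arrays and had another order. In intestine it read 574.4 and 472.8 without Nanog and 420.9 and 437.8 with it, and in colon 320.5 and 321.9 without and 126.8 and 127.9 with it. Intestine was higher than colon on every array, colon with Nanog was the lowest group, and replicates lay close together. On the intensity scale the intestine arrays with Nanog were below those without, and on the normalized log2 scale they overlapped (8.50 and 9.40 against 8.62 and 8.46).

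Cidea, a related droplet protein best known from brown fat, stayed close to background: it was above background on both arrays of intestine with Nanog (120.6 and 92.1) and on replicate 2 of colon without Nanog (116.8), and not on the other 5 arrays (92.8 to 114.6). It entered the tests only through intestine with Nanog. Perilipin 1 was below background on all 8 arrays (80.6 to 104.7, lowest detection p-value 0.0201 on replicate 2 of colon without Nanog). Fabp4 did not reach it on any array either (79.6 to 89.7, lowest detection p-value 0.269). Genes as typical of fat cells as Plin1, Fabp4 and Retn thus gave no signal above background with these probes, beside the signal of Adipoq and Car3 on 7 of 8 arrays.

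Pparg, the regulator, had 3 probes. The brightest, which stood for the gene, gave 180.1 and 952.0 in intestine without Nanog and 118.3 and 148.3 with it, and in colon 582.1 and 594.8 without and 516.7 and 313.2 with it. The replicates of intestine without Nanog lay further apart than any pair of group means, and the colon arrays without Nanog lay above those with Nanog. The second probe was above background on 5 arrays and was likewise highest on replicate 2 of intestine without Nanog (216.8), and the third was on none (76.0 to 97.3).

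**Figure D1:**
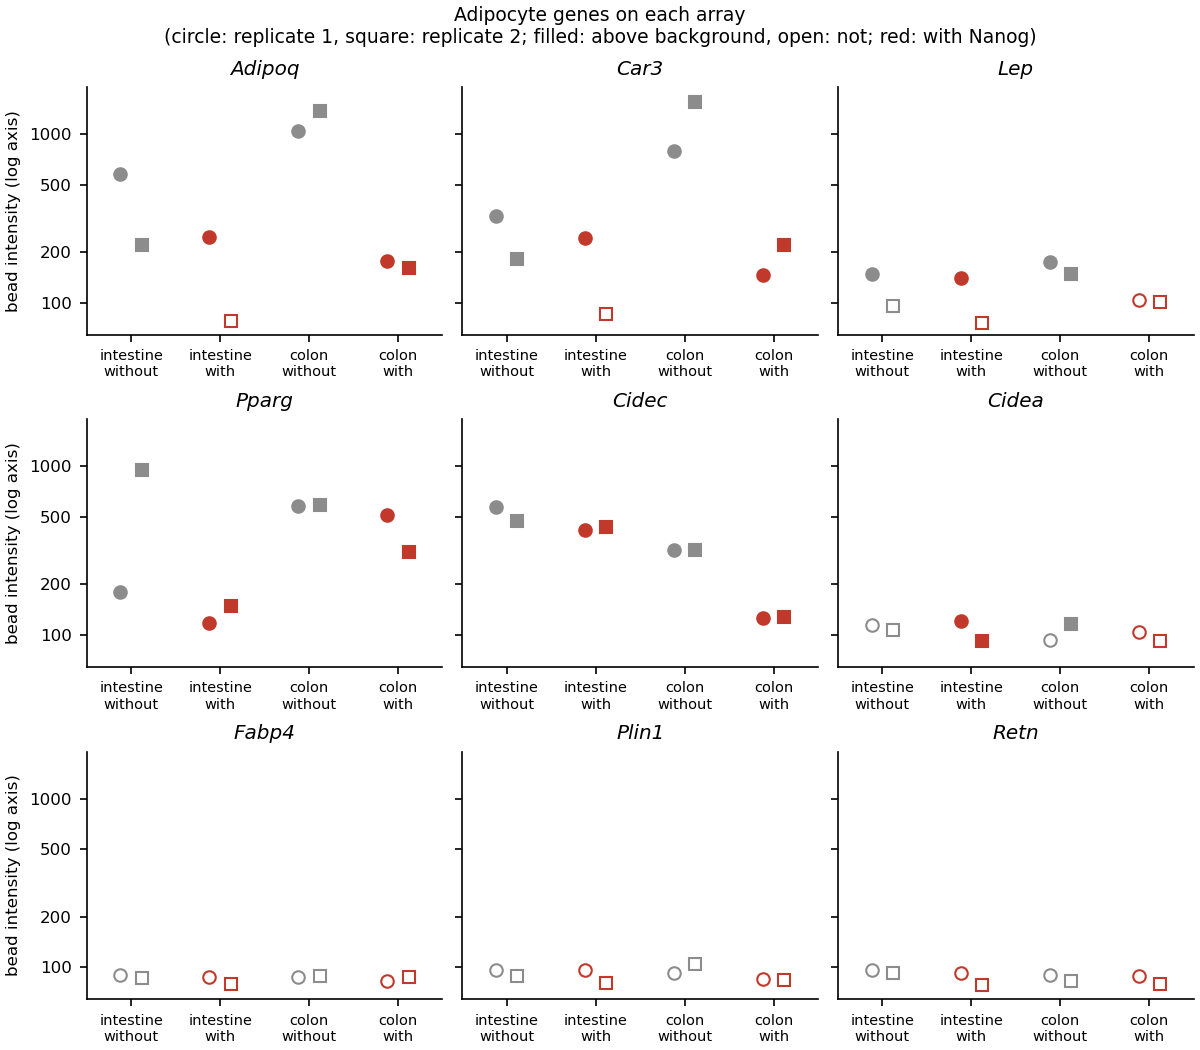
Bead intensity (log axis) of 9 adipocyte genes on each of the 8 arrays, with 1 point per array, red for arrays with Nanog, grey for those without, and open symbols for arrays below background; Pparg is shown by its brightest probe. Adipoq and Car3 are highest on both colon arrays without Nanog, Cidec is lowest on both colon arrays with Nanog, and Fabp4, Plin1 and Retn are open on every array.

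In colon, adipocyte genes had lower values with Nanog than without, and none passed the test. The question was whether the fat-cell signal differed between colon with and without overexpression. With limma's moderated test on background-corrected, quantile-normalized log2 intensities, Adipoq differed by -3.60 ± 0.95 (SE, 95% interval -5.84 to -1.36), a 12.1-fold lower intensity, with an adjusted p of 0.219. Car3 differed by -3.36 ± 0.87, 10.3-fold lower (adjusted p = 0.217). Cidec, with the tightest replicates, differed by -2.15 ± 0.32, 4.44-fold lower, and had the smallest adjusted p in colon, 0.0746. Lep was below background on both arrays with Nanog and was at least 2.43-fold lower there (adjusted p = 0.444). Pparg differed by -0.69 ± 0.99 (adjusted p = 0.828). Cidea was below background on both arrays with Nanog and has no fold (adjusted p = 0.878).

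Of the 6 genes tested in colon, limma called 0 at an adjusted p under 0.05, against 0.221% of the 8607 genes tested, and 3 had an unadjusted p under 0.05 with lower values, against 6.89%. For Adipoq, Car3, Cidec and Pparg both arrays with Nanog lay below both without, against 26.6% of all genes tested. The same held for Lep, which had been tested only through the group where it was high, and not for Cidea. Over the 9 genes on the array the median log2 difference was -0.69, against 0.00 over all 16593 genes, and 8 of the 9 were below 0, against 50.03% of all genes. These 9 include Plin1, Fabp4 and Retn, which were below background on all 8 arrays, so that the sign of their differences carries no information. They also include Lep, tested only through its high group, and Cidea, close to background. The call depended on the fit: with the 4 colon arrays alone limma called Adipoq (adjusted p = 0.00868) and Cidec (0.0234) lower, and Cidec was also called with median scaling (0.0438) and with array weights (0.0129). In bulk tissue, fewer fat cells and less RNA of these genes per fat cell cannot be told apart.

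In intestine, the members went in no common direction with Nanog, and none passed the test. Adipoq differed by -1.90 ± 0.95 (adjusted p = 0.645), Pparg by -1.68 ± 0.99 (0.71) and Car3 by -0.96 ± 0.87 (0.814), all with overlapping groups. Lep differed by -0.03 ± 0.65 (0.993), and Cidec was higher by 0.41 ± 0.32 (0.78). Cidea was tested only through intestine with Nanog, the group where it was high. It was below background on both arrays without Nanog and at least 1.24-fold higher with it (0.733). On the intensity scale the Cidea groups overlapped (114.6 and 107.2 without, 120.6 and 92.1 with Nanog). The direction of Lep, of Cidec and of Car3 turned under some alternatives, with Cidec at -0.09 under median scaling. By limma, 0 of 6 were called, against 0.163% of all genes tested, and 0 had an unadjusted p under 0.05, against 8.69%. The median over the 9 genes was 0.01, against 0.00 over all genes. Without replicate 2 of intestine with Nanog, where Adipoq, Car3 and Lep were all below background, the Adipoq difference was -0.36, and without replicate 1 of that group -3.43.

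The difference between the effects in colon and intestine was tested directly and was not called for any member. The 2 tissues have no array in common. Cidec came nearest, with -2.56 ± 0.45 (colon minus intestine effect, unadjusted p = 0.000739, adjusted p = 0.472), and the difference for Car3 was -2.40 ± 1.24 and for Adipoq -1.70 ± 1.34 (both adjusted p = 0.998). Of the 6 members 1 had an unadjusted p under 0.05, against 4.19% of all genes tested, and limma called 0 genes on the whole array (0%).

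Averaged over both tissues, Adipoq differed by -2.75 ± 0.67 (adjusted p = 0.117), Car3 by -2.16 ± 0.62 (0.156) and Cidec by -0.87 ± 0.23 (0.133), and limma called 0 of 6 members, against 1.2% of all genes tested. These 3 had an unadjusted p under 0.05, against 16.5%. Without replicate 1 of intestine with Nanog, Adipoq was called (-3.52, adjusted p = 0.038). For Adipoq, Car3 and Cidec both colon arrays with Nanog lay below both without, against 26.6% of all genes tested. In intestine the groups of each of these genes overlapped on the log2 scale.

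Between the tissues, without Nanog, Adipoq, Lep and Car3 were brighter in colon and Cidec was brighter in intestine, and none passed the test. Car3 was higher in colon by 2.79 ± 0.87 (adjusted p = 0.129) and Adipoq by 2.23 ± 0.95 (0.242), both without overlap, which held for 30.2% of all genes tested. Lep was higher by 1.08 ± 0.65 (0.407), but was tested only through colon without Nanog, the group where it was high. Cidec differed by -0.69 ± 0.32 (0.285), also without overlap, which held for 17.9% in that direction. By limma, 0 of 6 were called, against 5.5% of all genes tested, and 1 (Car3) had an unadjusted p under 0.05, against 20.8%.

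With Nanog, Cidec was lower in colon than in intestine, and it was the only call among the members in the 6 comparisons. The difference was -3.25 ± 0.32 (95% interval -4.00 to -2.49), 9.49-fold, with an adjusted p of 0.00211, in a comparison where limma called 6.65% of all genes tested, 3.46% lower in colon. This call was lost when replicate 2 of both groups with Nanog was left out, a setting chosen after seeing the data (-2.93, adjusted p = 0.0575), and held under the other 20 alternatives. Adipoq and Car3 differed by 0.52 ± 0.95 and 0.39 ± 0.87 in the same comparison (adjusted p of 0.802 and 0.843), and Pparg by 1.86 ± 0.99 (0.329). Lep and Cidea, below background on both colon arrays with Nanog, were at least 1.13-fold and at least 1.37-fold lower there (adjusted p of 0.846 and 0.229). Cidea was tested only through intestine with Nanog, the group where it was high. Comparisons between tissues and between conditions share arrays and are not independent.

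**Figure D2:**
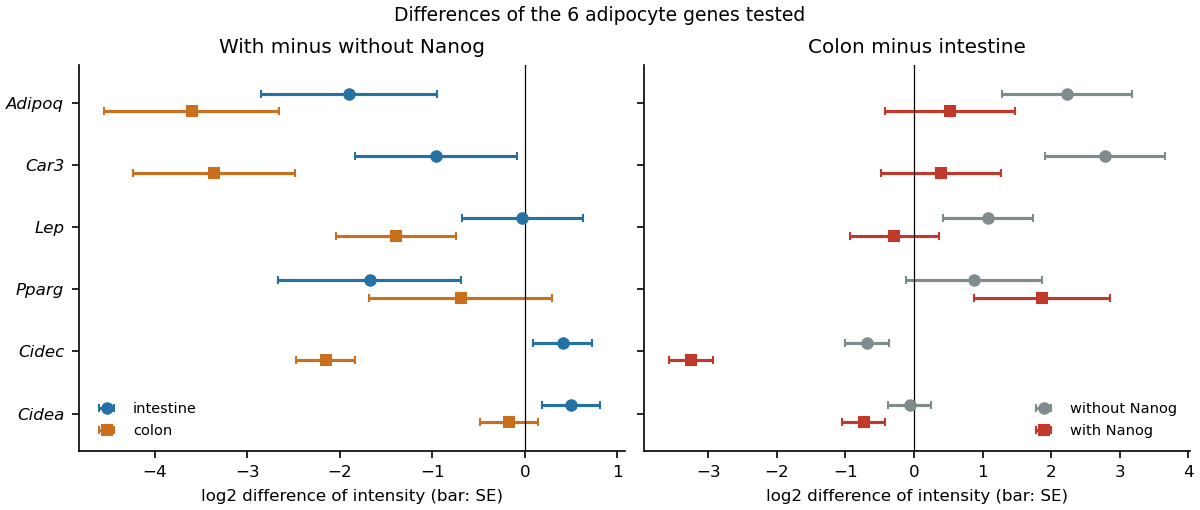
Log2 differences of intensity for the 6 adipocyte genes tested (points; bars, 1 SE of limma's fit), on the left with minus without Nanog in intestine and in colon, on the right colon minus intestine without and with Nanog. Adipoq, Car3 and Cidec lie between -3.60 and -2.15 in colon on the left, and Cidec with Nanog, at -3.25 on the right, is the only point past the test. Points of Lep and Cidea against a group below background are fitted values, for which the text gives a bound or no fold.

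Genes for storing and releasing fat, a list of 16 that includes other droplet proteins, triglyceride synthesis enzymes and lipases, were mostly lower in colon with Nanog. Of the 14 tested, 13 were lower and 1 higher, with a median of -0.52, against 50.6% of all genes tested below 0. Aqp7 was below background in both colon groups, so the sign of its difference carries no information. Of the 14, 0 were called, against 0.221% of all genes tested. Lpl, the lipase that frees fatty acids from circulating particles, came nearest: its colon arrays read 1896.4 and 2153.6 without Nanog and 403.8 and 628.8 with it, a difference of -2.25 ± 0.38 (adjusted p = 0.0871). The groups of Lpl did not overlap in colon. The droplet protein Plin4 gave 815.0 and 604.0 without and 355.1 and 272.9 with Nanog in colon (-1.46 ± 0.55, adjusted p = 0.356), and Agpat2, which makes phosphatidic acid, differed by -1.26 ± 0.39 (0.27). In intestine, 8 of 14 were lower and 6 higher, with a median of -0.07 and 0 called, against 0.163% of all genes tested. Gpam was below background in both intestine groups. The fatty acid transporter Cd36 was below background on all 8 arrays.

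Several of these storage genes differed between the tissues. Of the 14 tested, 3 were called lower and 2 higher in colon without Nanog, where 5.5% of all genes tested were called. With Nanog 5 were called lower in colon, against 3.46% of all genes tested. Without Nanog, Dgat1 (-3.50 ± 0.45, adjusted p = 0.00698), which makes triglyceride in enterocytes as well as fat cells, Gpd1 (-2.71 ± 0.33, 0.00575), which makes its glycerol backbone, and the glycerol channel Aqp7 were lower in colon. Aqp7 was below background on both colon arrays and was at least 8.74-fold lower there (adjusted p = 0.00981). It was also below background on both colon arrays with Nanog and at least 3.52-fold lower there. Aqp7 was thus tested only through intestine, where it was high, and is in both counts of calls. Lpl (2.16 ± 0.38, 0.0225) and the caveolar protein Cav1 (1.55 ± 0.30, 0.0322) were higher in colon. With Nanog, Dgat1, Dgat2, Agpat2, Gpd1 and Aqp7 were lower in colon (adjusted p from 0.00507 to 0.0372), and none of these 5 was called without replicate 2 of both groups with Nanog. Among the calls without Nanog, Gpd1 held under all 21 alternatives, Dgat1 under 17 of 21 and Aqp7 under 18 of 20. Lpl held under 15 of 21 and Cav1 under 10 of 21. Among those with Nanog, Dgat1 held under 19 of 21, Dgat2 and Gpd1 under 17 of 21, Agpat2 under 11 of 21 and Aqp7 under 9 of 20.

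Genes for making fatty acids and taking up sugar mostly had lower values with Nanog in both tissues, without a call. Of all genes tested, 0.163% were called in intestine and 0.221% in colon. In colon 9 of 10 were lower, with a median of -0.67, and in 9 of 10 both arrays with Nanog lay below both without, against 26.6% of all genes tested. One of these, Fasn, the fatty acid synthase, was tested only through colon without Nanog, the group where it was high. Scd1, which desaturates new fatty acids, had the largest difference: 4724.9 and 5174.1 without Nanog and 624.4 and 500.1 with it, or -3.47 ± 0.53 (adjusted p = 0.0784). Thrsp, a lipogenic regulator, was below background on both colon arrays with Nanog and at least 3.60-fold lower there (adjusted p = 0.113). Malic enzyme Me1, which supplies NADPH, differed by -1.55 ± 0.50 (0.294). In intestine 9 of 10 were also lower, with a median of -0.29, and in 1 of 10 the groups did not overlap, against 15.5%. Fasn was below background in both intestine groups. Between tissues, Acly, which makes cytosolic acetyl-CoA, was higher in colon (2.13 ± 0.24 without Nanog, adjusted p = 0.00336). With Nanog, Acly was again higher in colon (1.71 ± 0.24, 0.00891) and Pck1, a gene of glyceride and glucose synthesis, was lower (-2.51 ± 0.44, 0.0222), and both calls were lost without replicate 2 of both groups with Nanog.

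Regulators, hormones and receptors of fat cells split, with 7 of 10 tested lower and 3 higher in colon (median -0.36) and 6 lower and 4 higher in intestine (-0.10). Agt, the angiotensinogen gene, which fat cells and liver both make, rose with Nanog on average of the tissues (1.78 ± 0.28, adjusted p = 0.0423). In intestine it read 103.6 and 128.4 without Nanog and 272.5 and 135.1 with it, and in colon 118.5 and 136.9 without and 227.2 and 197.8 with it. Every array with Nanog was above the arrays without it in its tissue, and the call held under 7 of 19 alternatives. Adig, a small gene of fat-cell differentiation, was above background on both colon arrays without Nanog alone (131.4 and 184.9). It was tested only through that group, where it was high, and was at least 2.26-fold lower in colon with Nanog (adjusted p = 0.173). The factors Cebpa and Cebpb differed by -0.42 ± 0.50 and -0.45 ± 0.38 in colon (adjusted p of 0.795 and 0.681), and Lgals12, Nnat and Apln were below background on all 8 arrays.

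Of the brown fat list, Ucp1, the uncoupling protein that defines brown fat, was below background on all 8 arrays, as were Elovl3, Dio2, Prdm16 and Zic1. The 5 tested genes were lower in colon with Nanog (median -0.59) and had 2 lower and 3 higher in intestine (0.01). Of these 5, 0 were called, against 0.221% of all genes tested in colon and 0.163% in intestine. Between tissues, 1 was called lower in colon without Nanog and 2 with it, against 3.06% and 3.46% of all genes tested. Slc27a2, a fatty acid transporter that liver, kidney and small intestine also make, was lower in colon than intestine both without Nanog (-4.52 ± 0.43, adjusted p = 0.00189) and with it (at least 59.3-fold lower, adjusted p = 0.000406). With Nanog, Cpt1b, which takes fatty acids into mitochondria in muscle and brown fat, was at least 2.23-fold lower in colon (adjusted p = 0.0487), a call that held under 8 of 20 alternatives.

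**Figure D3:**
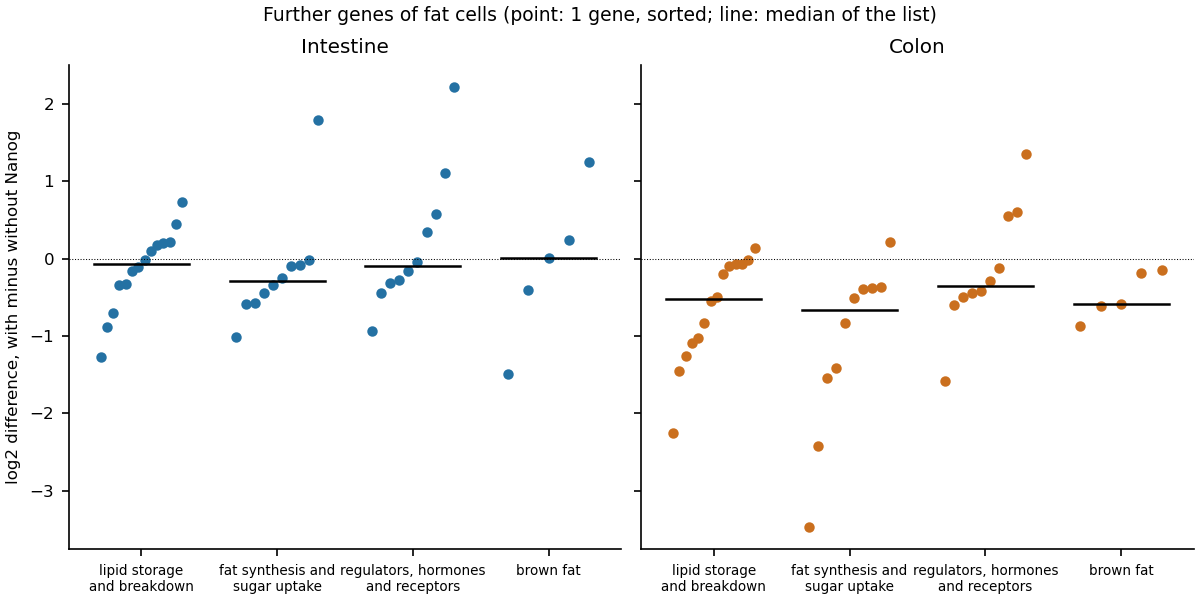
Log2 difference of intensity, with minus without Nanog, for each tested gene (point) of 4 further lists of fat-cell genes in intestine (left) and colon (right), with a line at each list's median. In colon the medians are -0.52, -0.67, -0.36 and -0.59 from left to right, with Scd1 lowest at -3.47, and in intestine they are -0.07, -0.29, -0.10 and 0.01.

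Genes of mesothelium, the cell sheet that covers the gut's outer surface and the mesentery, mostly had lower values with Nanog in both tissues. Upk3b, a uroplakin of mesothelial cells, gave 359.9 and 149.3 in intestine without Nanog, 91.8 and 78.3 with it, 259.0 and 266.9 in colon without, and 93.3 and 86.0 with it. All 4 arrays with Nanog were below background and all 4 without were above it. Upk3b was therefore tested only through the groups without Nanog, where it was high. With Nanog it was at least 3.32-fold lower in intestine and at least 5.32-fold lower in colon (adjusted p of 0.181 and 0.0871), and the average of the tissues was called (adjusted p = 0.0276). Upk1b, another uroplakin, differed by -0.85 ± 0.23 in intestine, was below background on both colon arrays with Nanog and at least 2.10-fold lower there (adjusted p of 0.314 and 0.0796), and was called on average (0.0335). Each average call held under 10 of 19 alternatives and was lost without replicate 2 of both groups with Nanog, in a comparison where 1.2% of all genes tested were called. Of the 5 mesothelial genes tested, 4 were lower and Wt1 was higher in colon (median -1.16), and 5 were lower in intestine (-0.81). These counts include Upk3b and Gpm6a, both tested only through groups without Nanog. Msln, Lrrn4 and Bnc1 were below background on all 8 arrays. The summed intensity of the 8 genes on the array was 5463 and 7237 on the colon arrays without Nanog and 3558 and 2897 on those with it, and 5153 and 4676 in intestine without, and 3299 and 1344 in intestine with it. On each colon array with Nanog 2 of these 8 genes were above background, Wt1 and the keratin Krt19. The part of epithelium in these sums was not tested. The part of mesothelium in the adipocyte values was not tested either.

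Fibroblast genes had higher values with Nanog in 9 of 10 in both tissues (medians 0.62 in intestine and 1.41 in colon). The collagen genes Col1a1 (2.19 ± 0.32, adjusted p = 0.0347) and Col1a2 (0.0429) were called on average, against 1.2% of all genes tested. Col1a2 was below background in intestine without Nanog, at least 1.07-fold higher there with it, and differed by 1.29 ± 0.23 in colon. The call held under 10 of 20 alternatives for Col1a1 and 6 of 19 for Col1a2, and both were lost without replicate 2 of both groups with Nanog. The summed intensity of the 10 fibroblast genes was 13317 and 13846 in colon without Nanog and 24034 and 20668 with it. In intestine the sum was 11050 and 9039 without Nanog and 12938 and 4366 with it, the last on replicate 2. Macrophage genes were higher in 8 of 8 in both tissues (medians 0.90 and 0.39). Of these 8, 0 were called, against 0.163% of all genes tested in intestine and 0.221% in colon. Endothelial genes were lower in 7 of 8 in colon (-0.28), and epithelial genes were lower in 7 of 9 in colon (-0.42).

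Skeletal muscle and liver also make Car3, and their part in the Car3 values was not tested. Of the 9 skeletal muscle genes on the array, 7, among them Myh1, Myh4 and Mb, were below background on all 8 arrays. On each array 1 or 2 of the 9 were above background. The summed intensity of the 9 genes was 851 to 1222 on every array. Of the 10 liver genes on the array, 7 were above background on replicate 2 of intestine with Nanog and 1 to 3 on each other array. Alb, Fgb and Tat were below background on all 8 arrays. The summed intensity of the liver genes was 14720 on replicate 2 of intestine with Nanog and 1349 to 5052 elsewhere.

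The 16 pancreatic acinar genes summed to 275395 on replicate 2 of intestine with Nanog and 220330 on replicate 2 of colon with Nanog, to 32070 on replicate 2 of intestine without Nanog, and to 5408 to 11507 on the other 5 arrays. The array highest in these genes in intestine was the array lowest in Adipoq, Car3 and Lep. In colon with Nanog, replicate 2, with many pancreatic transcripts, and replicate 1, with fewer, gave 160.4 and 177.3 for Adipoq, 127.9 and 126.8 for Cidec, 219.7 and 146.1 for Car3, and 313.2 and 516.7 for Pparg. Adipoq and Cidec were thus close on these arrays, Car3 was higher on replicate 2 and Pparg on replicate 1. Without replicate 2 of both groups with Nanog, the differences in colon were -3.59 for Adipoq and -2.29 for Cidec, neither called (adjusted p of 0.672 and 0.451), and the part of pancreatic RNA in the intestine values was not tested.

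**Figure D4:**
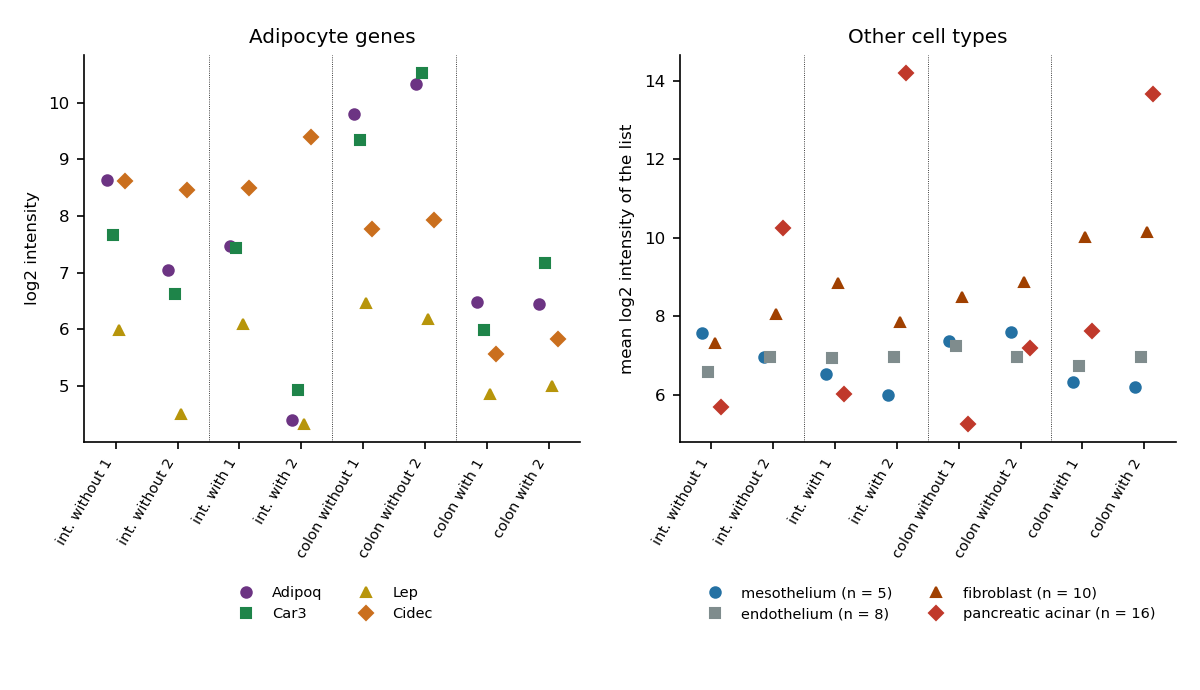
Left, normalized log2 intensity of Adipoq, Car3, Lep and Cidec on each of the 8 arrays; right, mean log2 intensity of the tested genes of mesothelium (5), endothelium (8), fibroblasts (10) and pancreatic acinar cells (16), with points shifted sideways for legibility. Adipoq, Car3 and Lep are highest on the colon arrays without Nanog, mesothelium is lower with Nanog than without in both tissues, and pancreatic genes reach 14.21 and 13.65 on replicate 2 of the groups with Nanog.

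The members did not share 1 profile. Over the 8 arrays, the mean log2 profile of the 5 members above background on at least 4 arrays had a Pearson r of 0.956 with Adipoq, 0.943 with Car3, 0.777 with Lep, 0.333 with Pparg and 0.207 with Cidec, all of which are part of that mean. The mean was highest in colon without Nanog (8.44 and 8.79) and lowest on replicate 2 of intestine with Nanog (6.06). Among 8264 other genes above background on at least 4 arrays, the 10 most like it were H2-Ab1 (r = 0.978), Ncaph2, Pcbp1, Gar1, H2-Eb1 (0.967), Rbpms, Tnfrsf25, Mrm1, Aacs and Cbfa2t3 (0.956). H2-Ab1 and H2-Eb1, chains of MHC class II molecules of antigen-presenting cells, differed in colon by -2.17 (adjusted p = 0.106) and -2.11 (0.133). These 8 points share arrays and normalization, and the 10 genes were picked as the highest of 8264, so the correlations are a description.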

How the data were processed

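Per the labels, biotin-labelled cRNA from total RNA was hybridised to Illumina bead arrays. BeadStudio 3.2, lumi and RMA are listed in the submitters' processing notes. Their roles and the genome build are not given in the sources used here. Each deposited intensity is a probe's mean bead signal, neither background-subtracted nor scaled, with a deposited detection p-value in 798 steps. The authors' deposited log2 values have the same quantiles on all 8 arrays and served as an alternative.

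In R 4.3.3, limma 3.58.1 corrected the background (normexp with an offset of 16, the deposited detection p-values standing in for negative controls), and values were taken to log2 and quantile-normalized. The 12064 probes above background (detection p under 0.01) on both arrays of any group entered, and the brightest probe stood for each of 8607 genes. Symbols came from the platform annotation, updated through Entrez identifiers, and 1719 probes had no single gene. The fit took all 8 arrays with group means (4 residual and 3.07 prior degrees of freedom), and p-values were adjusted by Benjamini-Hochberg over all genes tested. A gene below background on both arrays of a group has a lower bound as its fold, its level there taken per array as the higher of its own and the dimmest detected probe's value. The code was tested on simulated data. The precision is limited by 2 arrays a group.

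Replicate numbers recur in each group. The correlation of same-numbered arrays' deviations from their group means was 0.113 to 0.468 over the 6 pairs of groups. With 2 numbers and no label tying them to an animal or day, they were not used for pairing. The members and all further lists were chosen with earlier results of these data known. The genes named are the members, the 10 genes most like their mean profile and, of each further list, called genes or up to 3 of smallest p, from which examples are printed, as well as genes that define a cell type.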

Additional observations from a re-analysis of the deposited data

How the results depend on the processing

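Of the counts of called members, 119 of 124 values under alternatives matched the reported count. In colon, Nanog gave 1 call under median scaling, 1 with array weights and 2 with only the 4 arrays compared. The average gave 0 to 1 when an array was left out. Colon against intestine with Nanog gave 0 without replicate 2 of both groups with Nanog, added after seeing the data. Of 124 medians, 4 moved by more than the spread between replicates: with the authors' values, -1.26 for Nanog in colon and 1.00 for the tissues without Nanog, and for the tissues with Nanog -0.68 without both replicates 2 and -0.79 to -0.10 when an array was left out. Single members changed sign in 23 of 720 values, none of them called, and the cause was not tested. For Nanog in intestine, Lep was 0.00439 with an offset of 50, 0.0441 under median scaling, 0.21 under cyclic loess and 0.86 without both replicates 2, and Cidec was -0.0892 under median scaling and -0.0391, and Car3 0.30, without both replicates 2. In that setting Adipoq and Car3 were -0.999 and -1.46 for colon against intestine with Nanog. Leaving out 1 array gave ranges across 0 for Nanog in intestine (Lep -0.92 to 0.86, Cidec -0.0391 to 0.86, Car3 -2.22 to 0.30), in colon (Cidea -0.61 to 0.26), on average (Cidea -0.0568 to 0.38), for the difference (Pparg -0.57 to 2.53), for the tissues without Nanog (Cidea -0.50 to 0.37, Pparg -0.68 to 2.43) and with it (Lep -1.17 to 0.60, Adipoq -1.01 to 2.06, Car3 -0.87 to 1.65). The replicate number as a block changed no call among the members: Cidec was -3.25 (adjusted p = 0.0023) between tissues with Nanog and -2.15 (0.0595) for Nanog in colon. Detection on all 8 arrays left only Cidec and Pparg to test. With 2 arrays a group and several members near background, small differences were not detectable.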
